A study of Mus musculus with 18 samples.

Results

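Of the 18 RNA-seq libraries of the series, 6 came from follicular B cells cultured with CD40L, 3 from WT mice and 3 from Sh3gl1-/- mice. These 6 were chosen by their labels, not by any measured value, and are compared here. Sh3gl1 encodes endophilin A2. The mice were C57BL/6. The Sh3gl1-/- mice carried the deletion in every tissue from the germ line, so B cells developed without the gene, and the study names WT littermates as its controls. Follicular cells were sorted and then cultured with CD40L, and the labels of the 2 groups differ in genotype alone. The labels give 14 h of culture, which the methods call overnight, and a legend of the study gives a longer time. The other 12 libraries came from follicular cells taken directly ex vivo and from transitional cells, 3 libraries of each genotype, without culture. Whether the same mice gave several of these libraries is not stated in the sources used here, and ages are not given. The study describes its replicates as separate mice.

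CD40 is a receptor of the tumour necrosis factor receptor family on B cells. Its ligand, CD40L, is shown by helper T cells, and the bound receptor recruits TRAF adaptors that release NF-kB transcription factors. B cells answer by raising costimulatory and adhesion molecules, growing, and entering the cell cycle. Endophilins are BAR-domain proteins that bind and curve membranes. They recruit dynamin and synaptojanin through an SH3 domain and take part in clathrin-independent as well as clathrin-dependent uptake of receptors. The comparison asks how far the transcriptome of CD40L-cultured cells differs when endophilin A2 is missing.

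Total expected counts ran from 15246622 to 18366078 in the WT libraries and from 12415891 to 16325445 in the Sh3gl1-/- libraries. At this depth 3 counts correspond to 0.171 to 0.233 CPM, counts scaled to the library total, which is used as the counting floor. The B-cell marker Ms4a1, which encodes CD20, was high throughout, at 2409, 2440.3 and 2500.1 CPM in the WT libraries and 2353, 2168 and 2233 CPM in the Sh3gl1-/- libraries. The main axis of variation, 31.0% of the variance over the 6 libraries, did not separate the genotypes. WT library 3 lay at 1 end of it and Sh3gl1-/- library 2 at the other. These were also the 1 library of each genotype in which counts of Xist, the transcript that silences an X chromosome in females, exceeded those of Y-linked genes.

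Sh3gl1 itself was measured at 55.3, 50.6 and 52.9 CPM in the WT libraries and 1.35, 1.71 and 0.661 CPM in the Sh3gl1-/- libraries. The knockout libraries still held 20, 22 and 11 counts, above the floor of 3. Sh3gl1 fell in every knockout library (log2 fold change -5.44, SE 0.29, BH-adjusted p = 7.80e-05, edgeR quasi-likelihood test, n = 3 and 3). Here BH-adjusted marks Benjamini-Hochberg adjustment over all genes tested, and a value after ± is an SE. Its brain and testis relatives Sh3gl2 and Sh3gl3, endophilins A1 and A3, had 0 counts in all 6 libraries, which allows a level of up to 0.171 to 0.233 CPM. Of the more distant endophilin B genes, Sh3glb1 stood at 49.02, 35.5 and 33.5 CPM in the WT libraries and 44.4, 51.3 and 34.7 CPM in the Sh3gl1-/- libraries (log2 fold change 0.14 ± 0.20). Sh3glb2 stood at 18.1, 14.5 and 14.1 CPM in the WT libraries and 15.4, 18.4 and 18.3 CPM in the Sh3gl1-/- libraries (log2 fold change 0.16 ± 0.19). The groups overlapped for both endophilin B genes.

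The genes next to Sh3gl1 on chromosome 17 also had values far apart in the 2 genotypes. GENCODE M21 (GRCm38) places Stap2 at chr17:55997077-56005584 on the minus strand, Mpnd at chr17:56005711-56016790 on the plus strand, and Sh3gl1 at chr17:56016750-56036635 on the minus strand. Mpnd and Sh3gl1 thus run toward each other and overlap by 41 bases at their ends. Stap2 and Mpnd start back to back, 126 bases apart. The sequences before these starts are given to show the 2 promoter regions of the locus. They are from RefSeq's GRCm38.p6 table, 5′ to 3′, and capitals mark each CG dinucleotide. The first is the 250 bases before the Sh3gl1 start (chr17:56036660-56036909, minus strand), the second the stretch between the Stap2 and Mpnd starts read toward Mpnd (chr17:56005585-56005710, plus strand).
Sh3gl1: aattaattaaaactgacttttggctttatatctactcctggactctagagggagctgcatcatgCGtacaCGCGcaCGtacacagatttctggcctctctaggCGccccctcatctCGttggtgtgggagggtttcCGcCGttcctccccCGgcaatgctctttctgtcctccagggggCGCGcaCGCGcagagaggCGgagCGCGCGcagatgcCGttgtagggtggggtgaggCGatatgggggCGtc
Stap2-Mpnd: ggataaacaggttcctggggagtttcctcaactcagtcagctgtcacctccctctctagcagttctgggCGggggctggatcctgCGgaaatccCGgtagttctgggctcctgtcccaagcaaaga
The Sh3gl1 stretch held 20 CG dinucleotides, 0.93 of the number its base composition gives, while the Stap2-Mpnd stretch held 3, a ratio of 0.29. A ratio of at least 0.6 was found in 35.8% of the 32851 promoters of the table, taken over 300 bases.

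Mpnd, which encodes a MPN-domain protein, was at 16.9, 8.96 and 13.3 CPM in the WT libraries and 0.876, 1.24 and 0.421 CPM in the Sh3gl1-/- libraries. It fell with Sh3gl1 (log2 fold change -3.97, SE 0.41, BH-adjusted p = 0.0179). Because the genes overlap and the counting's use of strand is not stated, reads of the shared bases cannot be assigned to either gene. Stap2, an adaptor protein of cytokine receptor and kinase signalling, was at 0.528, 0.126 and 1.2 CPM in the WT libraries and 10.1, 8.4 and 9.02 CPM in the Sh3gl1-/- libraries. Its groups did not overlap, and its adjusted p missed the threshold (log2 fold change 3.85, SE 0.52, BH-adjusted p = 0.0734). It was called higher in Sh3gl1-/- cells ex vivo, at 0.134, 0 and 0 CPM in the WT libraries and 3.25, 4.33 and 5.46 CPM in the Sh3gl1-/- libraries. The adjusted p of Mpnd was 0.348 without Sh3gl1-/- library 1 and 0.0855 without Sh3gl1-/- library 3. Within 5 Mb of Sh3gl1, 13 of 63 tested genes (20.6%) had an unadjusted p under 0.05, against 919 of 13125 elsewhere.

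Across the 13188 genes tested, 3 were called lower in Sh3gl1-/- cells at an adjusted p under 0.05 (0.0227%) and 0 were called higher by edgeR. The same test gave 574 genes higher (4.35%) and 358 lower (2.71%) at an unadjusted p under 0.05. The median log2 fold change of all genes was 0.01. The spread between libraries of a group was a biological coefficient of variation of 23.1%. For 9080 genes (68.9%) the 95% interval of the difference stayed within 1 log2 unit of 0. DESeq2 called 46 genes higher and 29 lower, and the 3 genes called by edgeR were among them. In what follows, called refers to edgeR, and a call by DESeq2 alone is given beside the gene it concerns where that gene is named.

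The other called gene was Mocs1, an enzyme of molybdenum cofactor synthesis on the same chromosome (chr17:49428362-49455435, plus strand). It was at 8.97, 5.8 and 8.95 CPM in the WT libraries and 1.08, 1.01 and 1.5 CPM in the Sh3gl1-/- libraries, and the groups did not overlap. Mocs1 fell (log2 fold change -2.71, SE 0.32, BH-adjusted p = 0.0431), but leaving out any of the 6 libraries took the adjusted p to between 0.0507 and 0.413. Mocs1 was the only called gene besides Sh3gl1 and its neighbour Mpnd. It lies outside the window around Sh3gl1 examined above, but all called genes are on the chromosome of Sh3gl1. Whether the Mocs1 difference goes with the chromosome carrying the deletion or with the loss of Sh3gl1 was not tested. The 250 bases before its start are shown (chr17:49428114-49428363, plus strand), again with CG dinucleotides in capitals.
Mocs1: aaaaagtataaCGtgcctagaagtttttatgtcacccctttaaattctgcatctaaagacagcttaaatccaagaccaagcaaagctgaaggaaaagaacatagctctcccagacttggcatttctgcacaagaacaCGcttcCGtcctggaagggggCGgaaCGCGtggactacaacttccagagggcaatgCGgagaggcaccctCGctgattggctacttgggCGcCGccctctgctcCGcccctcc
It held 11 CG dinucleotides, a ratio of 0.67.

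The remaining genes of the 8 per direction with the lowest p-values were not called by edgeR, and DESeq2 called all of them, Stap2 included, with adjusted p from 7.98e-12 (Stap2) to 0.00512 (Gpr34). Their groups did not overlap, which the choice required. Ly6a, which encodes the surface protein Sca-1, was at 327, 183 and 227 CPM in the WT libraries and 79.2, 85.5 and 86.98 CPM in the Sh3gl1-/- libraries (log2 fold change -1.55, SE 0.20, BH-adjusted p = 0.0635). All WT libraries lay well above the highest Sh3gl1-/- library. Jaml, a junctional adhesion molecule, was at 25.7, 21.5 and 30.7 CPM in the WT libraries and 11.1, 9.18 and 11.4 CPM in the Sh3gl1-/- libraries (log2 fold change -1.30, SE 0.20, BH-adjusted p = 0.103). Cyp4f18, a cytochrome that inactivates leukotriene B4, was at 40.97, 34.2 and 30.5 CPM in the WT libraries and 13.5, 17.5 and 15.6 CPM in the Sh3gl1-/- libraries (log2 fold change -1.18, SE 0.18, BH-adjusted p = 0.103). Fcrl5, an Fc receptor-like protein of B cells, and Gpr34, a lysophospholipid receptor, differed by -0.82 ± 0.14 and -1.62 ± 0.31 on the log2 scale.

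On the higher side, Hivep3, a zinc finger protein that binds kB-like sites, was at 17.02, 9.65 and 12.9 CPM in the WT libraries and 37.6, 56.2 and 37.6 CPM in the Sh3gl1-/- libraries (log2 fold change 1.73, SE 0.25, BH-adjusted p = 0.0849). Rgl1, an activator of the Ral GTPase, was at 3.17, 4.04 and 2.11 CPM in the WT libraries and 12.4, 13.5 and 10.8 CPM in the Sh3gl1-/- libraries (log2 fold change 1.98, SE 0.28, BH-adjusted p = 0.0849). Rgs13, which shortens chemokine receptor signals in germinal centre B cells, was at 2.7, 4.54 and 1.99 CPM in the WT libraries and 15.6, 13.7 and 9.44 CPM in the Sh3gl1-/- libraries (log2 fold change 2.07, SE 0.34, BH-adjusted p = 0.12). Every Sh3gl1-/- library exceeded every WT library for these genes. Bend5, a BEN-domain transcription regulator, was at 8.77, 6.94 and 7.24 CPM in the WT libraries and 19.1, 28.5 and 19.2 CPM in the Sh3gl1-/- libraries (log2 fold change 1.54, SE 0.23, BH-adjusted p = 0.091). Atp6v0a1, a membrane subunit of the proton pump that acidifies endosomes and lysosomes, was at 26.6, 34.3 and 25.8 CPM in the WT libraries and 52.4, 57.8 and 62.2 CPM in the Sh3gl1-/- libraries (log2 fold change 0.99, SE 0.16, BH-adjusted p = 0.105). The secreted protein gene Fam3c and the heparan sulfate sulfotransferase gene Hs3st1 differed by 1.15 ± 0.19 and 1.53 ± 0.24 on the log2 scale. For a single gene, an exact permutation test of 3 libraries against 3 cannot go below p = 0.1, two-sided, and all 16 genes reached that value by construction.

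**Figure D1:**
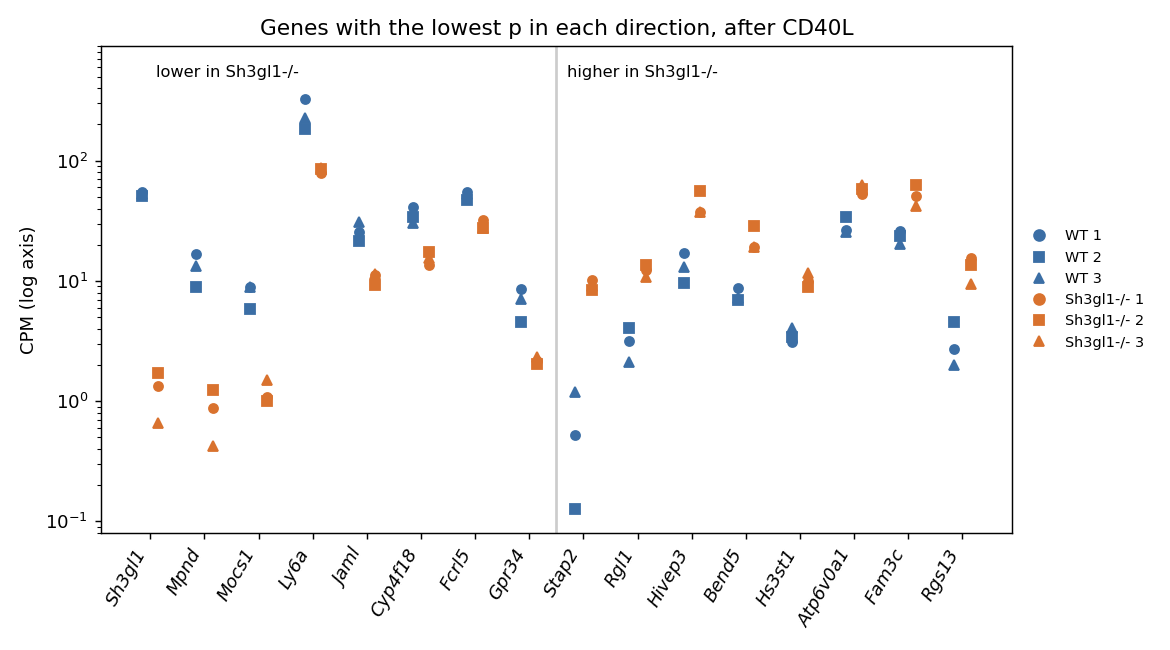
CPM (log axis) of the 8 genes with the lowest p in each direction, for each WT (blue) and Sh3gl1-/- (orange) library after CD40L. Marker shape gives the library number. The groups do not overlap for any of these genes, as the choice required, and Sh3gl1, Mpnd and Mocs1 were the ones called.

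The ex vivo comparison shares no library with the one after CD40L. Whether it shares mice is not stated, so the 2 are not taken as independent. There, 115 genes were called (0.845% of 13610), 66 higher in Sh3gl1-/- follicular cells (0.485%) and 49 lower (0.36%). After CD40L, 59 of the 66 had enough counts for a test. The log2 fold change was above 0 for 58 of them (98.3%), against 52% of all genes, and 41 (69.5%) had an unadjusted p under 0.05 in that direction, against 4.35% of all genes. Of the genes called lower ex vivo, leaving out Sh3gl1, 41 were tested after CD40L. Of these, 33 (80.5%) were below 0, against 48% of all genes, and 19 (46.3%) had an unadjusted p under 0.05, against 2.71%. The median log2 fold change of the higher genes was 0.80 ex vivo and 0.56 after CD40L. That of the lower genes was -0.80 and -0.56. Markers of other cells were read in both states. The median log2 fold change ex vivo and after CD40L was 0.82 and 0.73 for T-cell genes, 2.03 and 1.98 for neutrophil genes, 0.53 and 0.08 for NK cell genes, 0.62 and -0.21 for monocyte and macrophage genes and 1.08 and -0.91 for erythroid genes. Of the 14 tested T-cell genes, 4 were called higher ex vivo and are among the 59. None of the neutrophil, NK cell, monocyte and macrophage or erythroid genes tested after CD40L was called ex vivo. The marker medians and calls of both states cover only members tested after CD40L. These were 8 of 14 neutrophil, 6 of 10 NK cell, 5 of 16 monocyte and macrophage and 5 of 8 erythroid genes. Calls ex vivo among the other members were not counted. Stap2 is also among the higher genes, and Mpnd and Mocs1 are among the lower. The part of marker and locus genes in these shares was not tested. In bulk RNA fewer cells of a type and less RNA per cell cannot be told apart.

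Ex vivo, Hivep3 was at 12.9, 13.1 and 7.9 CPM in the WT libraries and 69.9, 57.4 and 49.5 CPM in the Sh3gl1-/- libraries, and Sh3gl1-/- libraries were the higher in both states. Cdk5rap1, a mitochondrial tRNA-modifying enzyme, was called higher ex vivo, at 10.1, 11.1 and 11.00 CPM in the WT libraries and 50.5, 47.1 and 30.8 CPM in the Sh3gl1-/- libraries. After CD40L it was at 12.9, 15.5 and 11.5 CPM in the WT libraries and 43.4, 33.3 and 25.5 CPM in the Sh3gl1-/- libraries (log2 fold change 1.36, SE 0.23, BH-adjusted p = 0.124). Lrmp, an endoplasmic reticulum membrane protein of lymphocytes, was at 125, 222 and 189.7 CPM in the WT libraries and 342, 317 and 358 CPM in the Sh3gl1-/- libraries after CD40L (log2 fold change 0.92, SE 0.19, BH-adjusted p = 0.269). Its ex vivo value was 0.90 ± 0.10. DESeq2 called Cdk5rap1 and Lrmp after CD40L (adjusted p = 3.20e-05 and 0.00429). Ahnak, a very large scaffold protein, was called lower ex vivo, and after CD40L its interval of -1.65 to 0.39 on the log2 scale included 0. Serpina3f, a protease inhibitor called higher ex vivo, was too low after CD40L for a test.

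In transitional cells 514 genes were called (3.73%), 173 higher (1.26%) and 341 lower (2.48%). The same count after CD40L gave 140 of 157 tested genes (89.2%) above 0 among those called higher there. It gave 308 of 334 (92.2%) below 0 among those called lower, Sh3gl1 left out. The last share was 70.7% without WT library 3. All 3 genes called after CD40L were also called in the other 2 cell states, by their own libraries.

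**Figure D2:**
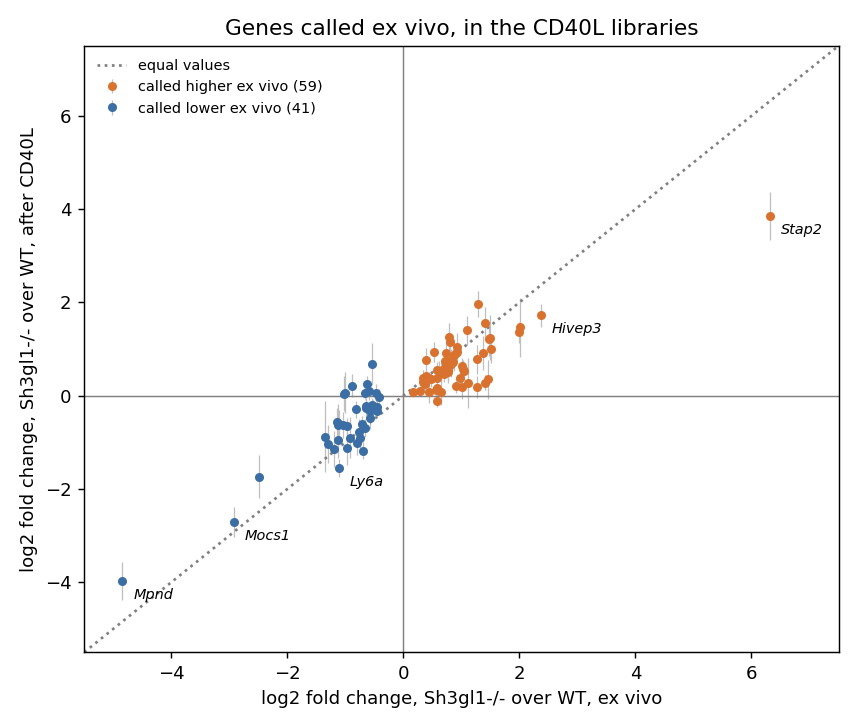
Log2 fold change of Sh3gl1-/- over WT cells ex vivo (x axis) and after CD40L (y axis), for the 59 genes called higher and the 41 called lower ex vivo that were tested after CD40L, Sh3gl1 left out. Bars give the SE after CD40L and the dotted line marks equal values. Of the higher genes 58 lie above 0 on the y axis, and of the lower genes 33 lie below it. Ex vivo WT libraries held 2, 0 and 0 counts of Stap2, so its place on the x axis depends on the prior count.

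No gene of the CD40 receptor and its proximal signalling proteins was called. Of 17 members, 6 were above 0 and 11 below, with a median log2 fold change of -0.03, and for 16 the 95% interval stayed within 1 log2 unit of 0. Cd40 was at 400.4, 369.6 and 454 CPM in the WT libraries and 389.8, 342 and 385 CPM in the Sh3gl1-/- libraries (log2 fold change -0.13 ± 0.12, interval -0.41 to 0.15). Traf1, an adaptor that CD40 itself induces, was at 509, 494 and 572 CPM in the WT libraries and 451, 374 and 529 CPM in the Sh3gl1-/- libraries (-0.22 ± 0.14). Traf3 and Map3k14, which encodes the kinase NIK, differed by 0.12 ± 0.17 and -0.06 ± 0.24. The groups overlapped for all 4 genes. Jak3, the kinase of the common gamma chain, was the member with the lowest p, at 2.84, 3.78 and 1.65 CPM in the WT libraries and 6.07, 6.69 and 5.23 CPM in the Sh3gl1-/- libraries (log2 fold change 1.12, SE 0.34, BH-adjusted p = 0.542).

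NF-kB subunits and their inhibitors had 9 of 14 members above 0 and a median of 0.10, with 0 called. Rel, the c-Rel subunit, was at 217, 236 and 187 CPM in the WT libraries and 261, 256 and 289 CPM in the Sh3gl1-/- libraries, without overlap (log2 fold change 0.33, SE 0.13, BH-adjusted p = 0.668). Nfkbia, the inhibitor IkB-alpha and a direct NF-kB target, was at 623, 1013 and 687 CPM in the WT libraries and 1127, 1039.6 and 861 CPM in the Sh3gl1-/- libraries (log2 fold change 0.38, SE 0.19, BH-adjusted p = 0.713). WT library 2 lay among the Sh3gl1-/- libraries for it. The subunit genes Nfkb2 and Relb gave 0.25 ± 0.19 and -0.14 ± 0.19, and Tnfaip3, the feedback inhibitor A20, gave -0.02 ± 0.21.

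Surface proteins that CD40 induces were below 0 in 17 of 21 cases, with a median of -0.14 against 0.01 for all genes. None was called by edgeR, and 3 (14.3%) were without overlap on the lower side, against 6.43% of all genes. Il1r2, the decoy interleukin-1 receptor, was at 23.9, 18.7 and 21.3 CPM in the WT libraries and 10.9, 8.09 and 11.9 CPM in the Sh3gl1-/- libraries (log2 fold change -1.04, SE 0.21, BH-adjusted p = 0.269), and DESeq2 called it (adjusted p = 0.0034). Cd80, a costimulatory ligand of CD28, was at 9.57, 10.3 and 11.9 CPM in the WT libraries and 7.35, 6.46 and 7.99 CPM in the Sh3gl1-/- libraries (log2 fold change -0.54, SE 0.21, BH-adjusted p = 0.671). All WT libraries were above all Sh3gl1-/- libraries for Il1r2 and Cd80. Cd86, the other CD28 ligand, was at 106, 80.4 and 81.4 CPM in the WT libraries and 77.3, 80.4 and 81.6 CPM in the Sh3gl1-/- libraries, with overlap (log2 fold change -0.16, SE 0.14, BH-adjusted p = 0.796). Cd83, Fas and Icam1 gave 0.06 ± 0.14, -0.14 ± 0.13 and -0.15 ± 0.21 on the log2 scale.

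Genes of sterol synthesis were mostly on the higher side in Sh3gl1-/- cells after CD40L. The pathway is controlled by SREBP-2, a transcription factor that the endoplasmic reticulum releases when membrane cholesterol is low. Of 32 tested genes of cholesterol and fatty acid synthesis, 28 were above 0, with a median of 0.35. None was called, 9 had an unadjusted p under 0.05 (4.35% of all genes), and 8 were without overlap (7.07% of all genes). Ex vivo the median was -0.18, with 10 of 31 genes above 0.

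Msmo1, a sterol demethylase, was at 302, 336 and 302 CPM in the WT libraries and 465, 411 and 419 CPM in the Sh3gl1-/- libraries after CD40L (log2 fold change 0.46, SE 0.11, BH-adjusted p = 0.379). Ex vivo it was at 71.8, 98.5 and 93.3 CPM in the WT libraries and 66.1, 72.5 and 72.5 CPM in the Sh3gl1-/- libraries, the Sh3gl1-/- libraries then lying toward the low end. Srebf2, the gene of SREBP-2, was at 88.2, 95.2 and 69.1 CPM in the WT libraries and 106, 143 and 144 CPM in the Sh3gl1-/- libraries after CD40L (log2 fold change 0.64, SE 0.17, BH-adjusted p = 0.455) and at 70.8, 64.3 and 53.5 CPM in the WT libraries and 45.9, 49.04 and 47.9 CPM in the Sh3gl1-/- libraries ex vivo. The Sh3gl1-/- libraries were thus all above WT after culture and all below WT before it.

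Not every member separated the groups. Hmgcs1, an early enzyme of the pathway, was at 231, 432 and 441 CPM in the WT libraries and 529, 364 and 495 CPM in the Sh3gl1-/- libraries (log2 fold change 0.33, SE 0.24, BH-adjusted p = 0.775). Sqle, squalene epoxidase, was at 153, 250.2 and 253 CPM in the WT libraries and 307, 215 and 302 CPM in the Sh3gl1-/- libraries (log2 fold change 0.33, SE 0.21, BH-adjusted p = 0.764). For Hmgcs1 and Sqle, WT library 1 was the lowest and Sh3gl1-/- library 2 lay between it and the other WT libraries. Omitting single libraries took the list's median between 0.19 and 0.46.

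The difference between the 2 genotype effects was tested for these genes in 1 fit of the 12 follicular libraries. That fit took the libraries as independent, and whether the 2 states share mice is not stated. It was above 0 for 31 of 32 genes, with a median of 0.36, and 7 (21.9%) had an unadjusted p under 0.05 against 8.84% of all genes. None passed the adjusted threshold in edgeR, while DESeq2 called Srebf2 (adjusted p = 0.00842) and Msmo1 (adjusted p = 0.0425). In edgeR, Srebf2 gave 1.02 ± 0.21 (adjusted p = 0.322) and Msmo1 0.76 ± 0.17 (adjusted p = 0.455). A search for CACCCCAC on either strand, a core of the sterol response element, found it in 1 of the 22 list genes with a promoter in the RefSeq table and in 2.87% of all promoters. That gene was Hmgcs1 (chr13:119690101-119690350, plus strand, GRCm38.p6), shown here over the 250 bases before its start with the match in capitals.
Hmgcs1: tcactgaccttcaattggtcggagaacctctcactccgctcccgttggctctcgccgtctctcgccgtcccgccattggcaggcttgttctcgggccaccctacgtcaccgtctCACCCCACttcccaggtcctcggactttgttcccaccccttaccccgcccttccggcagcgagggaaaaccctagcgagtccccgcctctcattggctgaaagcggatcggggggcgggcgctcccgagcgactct

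**Figure D3:**
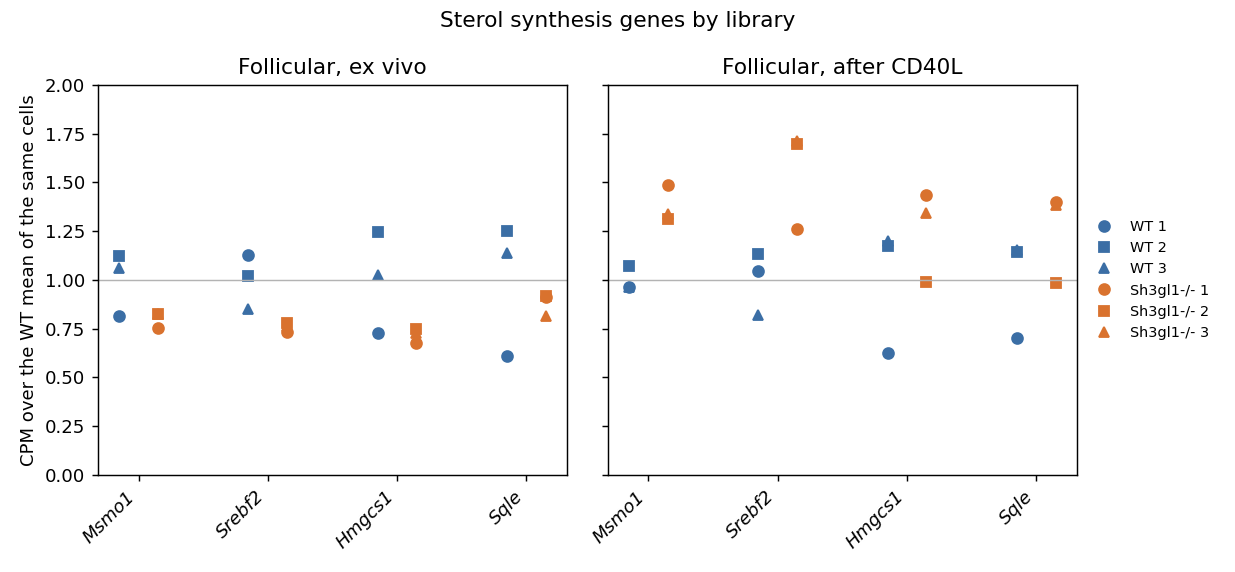
CPM of 4 sterol genes in each follicular library, divided by the WT mean of the same cells, ex vivo (left) and after CD40L (right). WT libraries are blue, Sh3gl1-/- libraries orange, and marker shape gives the library number. For Msmo1 and Srebf2 every Sh3gl1-/- library lies above every WT library after CD40L.

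Proteasome subunits and mitochondrial proteins made in the cytosol were mostly on the lower side, by small amounts. Of 47 tested proteasome genes, 40 were below 0, with a median of -0.23, and 24 were without overlap on the lower side (51.1% against 6.43% of all genes). Psmb10, a catalytic subunit of the immunoproteasome, was at 135, 137 and 130.2 CPM in the WT libraries and 108, 96.7 and 101 CPM in the Sh3gl1-/- libraries (log2 fold change -0.40, SE 0.12, BH-adjusted p = 0.538). Psme2, a subunit of the activator cap that aids antigen processing, was at 1343, 1195 and 1305 CPM in the WT libraries and 1054, 1007 and 908 CPM in the Sh3gl1-/- libraries (log2 fold change -0.37, SE 0.11, BH-adjusted p = 0.538). Ex vivo the proteasome median was 0.06, and none of these genes was called in either state. Members of such complexes vary together, so their number is not a number of independent observations.

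Mitochondrial ribosomal proteins were below 0 in 68 of 78 cases (median -0.17), and 28 (35.9%) were without overlap on the lower side, against 6.43% of all genes. Nuclear-encoded subunits of the respiratory chain were below 0 in 71 of 88 cases (median -0.16), and 23 (26.1%) were lower without overlap, against the same 6.43%. Atp5g1, a subunit of the ATP synthase ring, was at 359, 349 and 396 CPM in the WT libraries and 310.1, 299 and 277 CPM in the Sh3gl1-/- libraries (log2 fold change -0.32, SE 0.11, BH-adjusted p = 0.663). Mrpl17, a protein of the large mitochondrial ribosomal subunit, was at 199, 189 and 232 CPM in the WT libraries and 178, 159 and 156 CPM in the Sh3gl1-/- libraries (log2 fold change -0.33, SE 0.13, BH-adjusted p = 0.671). The 13 transcripts encoded in mitochondria lay the other way, 12 above 0 with a median of 0.28, and the groups overlapped for each of them. mt-Co1, a catalytic subunit of cytochrome oxidase, was at 2790.2, 1789 and 1918 CPM in the WT libraries and 2194, 3004 and 2516 CPM in the Sh3gl1-/- libraries (log2 fold change 0.25 ± 0.18).

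Cytosolic ribosomal proteins were below 0 in 76 of 84 cases, with a median of -0.11, while ex vivo 76 of 83 were above 0 with a median of 0.25. After CD40L only 5 (5.95%) were lower without overlap, near the 6.43% of all genes. The difference between the effects was below 0 for 83 of 84 genes, and 61 (72.6%) had an unadjusted p under 0.05, against 8.84% of all genes. Of these 61, 60 were downward, where the downward share of all genes was 4.41%. Rpl3, a protein of the large subunit, was at 2360.2, 2420.1 and 1722 CPM in the WT libraries and 1547, 1287 and 1443 CPM in the Sh3gl1-/- libraries (log2 fold change -0.60, SE 0.15, BH-adjusted p = 0.376), and DESeq2 called it (adjusted p = 0.0442). Rpl13 went against the list at 157, 235 and 164 CPM in the WT libraries and 470.1, 358 and 211 CPM in the Sh3gl1-/- libraries (0.90 ± 0.27). Ribosomal protein genes have many processed copies in the genome that share reads, so single values of this family are uncertain.

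**Figure D4:**
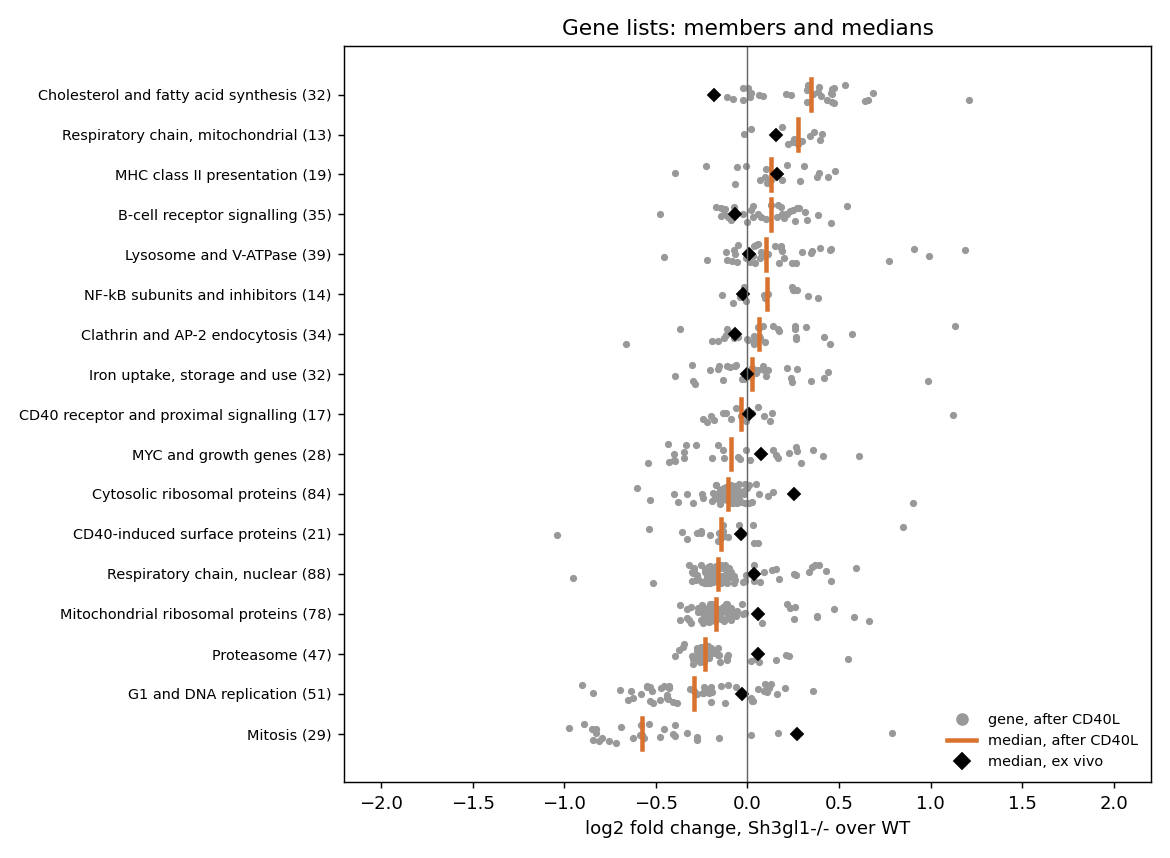
Log2 fold change of Sh3gl1-/- over WT cells after CD40L for each tested member (grey points, spread vertically for display) of 17 gene lists, with the number tested. Orange bars give the median after CD40L and black diamonds the median ex vivo. The median of cholesterol and fatty acid synthesis is 0.35 after CD40L and -0.18 ex vivo, and that of mitosis -0.58 and 0.27.

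Cell cycle genes had lower median values in Sh3gl1-/- cells, and this rested on WT library 3. The summed level of 29 mitosis genes was 362, 399 and 944 CPM in the WT libraries and 396, 260.05 and 500.04 CPM in the Sh3gl1-/- libraries. WT library 3 stood alone at the top, and the other 2 WT libraries lay within the range of the Sh3gl1-/- libraries. The median log2 fold change of this list was -0.58, with 26 of 29 genes below 0. Without WT library 3 it was 0.04, with 17 genes above 0. The 51 genes of G1 and DNA replication gave a summed 3049.6, 3444 and 6047 CPM in the WT libraries and 3269.9, 2543 and 3796 CPM in the Sh3gl1-/- libraries. Their median was -0.29, and 0.05 without WT library 3.

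Ccnd2, cyclin D2, which starts G1 progression in B cells, was at 389.6, 449 and 843 CPM in the WT libraries and 324, 243 and 368 CPM in the Sh3gl1-/- libraries, without overlap (log2 fold change -0.85, SE 0.27, BH-adjusted p = 0.599). Top2a, which untangles replicated DNA, was at 65.2, 80.9 and 198 CPM in the WT libraries and 64.4, 41.6 and 88.00 CPM in the Sh3gl1-/- libraries (log2 fold change -0.83, SE 0.40, BH-adjusted p = 0.712). Myc was at 139.7, 257 and 303 CPM in the WT libraries and 217, 144 and 215 CPM in the Sh3gl1-/- libraries (log2 fold change -0.28, SE 0.27, BH-adjusted p = 0.805). The nucleolar protein gene Ncl gave -0.40 ± 0.19. Among growth genes, the amino acid carrier gene Slc38a2 was at 219, 197 and 146 CPM in the WT libraries and 272, 326 and 257 CPM in the Sh3gl1-/- libraries, higher without overlap (log2 fold change 0.61, SE 0.17, BH-adjusted p = 0.493). Slc7a5, the leucine carrier, was at 16.5, 13.9 and 15.6 CPM in the WT libraries and 11.7, 11.8 and 11.3 CPM in the Sh3gl1-/- libraries, lower without overlap (log2 fold change -0.40, SE 0.18, BH-adjusted p = 0.707). Of the 28 tested growth genes 11 were above 0 and 17 below, and none was called.

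Endophilin's partners in membrane uptake were examined as a list of 32 tested genes, Sh3gl1 included. Besides Sh3gl1 none was called by edgeR, 20 were above 0 and the median was 0.14. Synj1, the phosphatase that endophilin recruits to uncoat vesicles, was at 23.7, 15.3 and 14.6 CPM in the WT libraries and 24.3, 19.9 and 20.7 CPM in the Sh3gl1-/- libraries (log2 fold change 0.27, SE 0.22, BH-adjusted p = 0.786). Dnm2, the dynamin that cuts vesicles off, was at 32.5, 36.9 and 29.98 CPM in the WT libraries and 30.1, 33.7 and 47.9 CPM in the Sh3gl1-/- libraries (log2 fold change 0.17, SE 0.19, BH-adjusted p = 0.844). The groups overlapped for Synj1 and Dnm2. Arhgap17, a BAR-domain protein that speeds GTP hydrolysis by small GTPases, was at 84.8, 97.5 and 68.8 CPM in the WT libraries and 137, 153 and 141 CPM in the Sh3gl1-/- libraries, without overlap (log2 fold change 0.78, SE 0.15, BH-adjusted p = 0.227), and DESeq2 called it (adjusted p = 0.00339). Its ex vivo value was 0.22 ± 0.09, and the difference between the states was 0.55 ± 0.17 (unadjusted p = 0.00597, adjusted p = 0.465).

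Of 34 tested clathrin and AP-2 genes 23 were above 0 (median 0.06), none was called, and 6 (17.6%) were without overlap on the higher side, against 7.07% of all genes. The clathrin heavy chain gene Cltc was at 203, 263 and 254 CPM in the WT libraries and 226, 193 and 264 CPM in the Sh3gl1-/- libraries (-0.08 ± 0.16). Ap2a1, a large AP-2 subunit, was at 2.37, 2.52 and 2.11 CPM in the WT libraries and 4.72, 6.69 and 4.03 CPM in the Sh3gl1-/- libraries (log2 fold change 1.13, SE 0.31, BH-adjusted p = 0.476). Fcho1, a nucleator of clathrin pits, was at 16.4, 16.5 and 11.9 CPM in the WT libraries and 17.5, 23.6 and 25.4 CPM in the Sh3gl1-/- libraries (log2 fold change 0.57, SE 0.21, BH-adjusted p = 0.664). Lysosomal and proton pump genes had 29 of 39 members above 0, median 0.10, led by Atp6v0a1. Ctsh, a lysosomal protease, was at 269.9, 272 and 231 CPM in the WT libraries and 327, 324 and 332 CPM in the Sh3gl1-/- libraries, without overlap (log2 fold change 0.35, SE 0.12, BH-adjusted p = 0.629). Among 43 tested Rab genes Rab30, a Golgi GTPase, was at 31.1, 33.3 and 34.6 CPM in the WT libraries and 56.01, 56.5 and 51.1 CPM in the Sh3gl1-/- libraries (log2 fold change 0.72, SE 0.13, BH-adjusted p = 0.174), and DESeq2 called it (adjusted p = 0.00624).

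Iron genes were split. Cells take up transferrin-bound iron by endocytosis of the transferrin receptor, and iron regulatory proteins set receptor and ferritin output mainly after transcription. Of 32 tested genes 18 were above 0 and 14 below, with a median of 0.02 and none called. Tfrc, the transferrin receptor gene, was at 54.6, 64.8 and 118 CPM in the WT libraries and 95.7, 45.9 and 99.4 CPM in the Sh3gl1-/- libraries (log2 fold change 0.02, SE 0.33, BH-adjusted p = 0.991, interval -0.72 to 0.77). WT library 3 and Sh3gl1-/- libraries 1 and 3 were the high ones, so the spread within each genotype exceeded the difference between them. Slc11a2, which moves iron out of endosomes, was at 12.8, 24.2 and 18.4 CPM in the WT libraries and 19.6, 13.5 and 23.8 CPM in the Sh3gl1-/- libraries (0.04 ± 0.28). Ireb2, an iron regulatory protein, was at 82.7, 101 and 97.6 CPM in the WT libraries and 75.1, 79.5 and 74.2 CPM in the Sh3gl1-/- libraries, without overlap (log2 fold change -0.30, SE 0.13, BH-adjusted p = 0.702). Alad, an enzyme of haem synthesis, was at 40.4, 48.8 and 48.2 CPM in the WT libraries and 34.2, 33.1 and 37.1 CPM in the Sh3gl1-/- libraries (log2 fold change -0.40, SE 0.14, BH-adjusted p = 0.652). Fth1, ferritin heavy chain, was at 121, 225 and 115 CPM in the WT libraries and 397, 337 and 178 CPM in the Sh3gl1-/- libraries (log2 fold change 0.99, SE 0.32, BH-adjusted p = 0.599), a gene with processed copies that can share its reads.

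Antigen presentation, receptor signalling and marker genes of B cells did not lie on 1 side. MHC class II presentation had 14 of 19 genes above 0 (52% of all genes were), median 0.13, and 5 (26.3%) were higher without overlap, against 7.07% of all genes. The B-cell marker list had 8 of 11 genes below 0, median -0.12, and 3 (27.3%) were lower without overlap, against 6.43%. Ciita, the master activator of class II genes, was at 319, 293 and 237 CPM in the WT libraries and 331, 409 and 411 CPM in the Sh3gl1-/- libraries (log2 fold change 0.44, SE 0.15, BH-adjusted p = 0.629). H2-Oa, which restrains peptide loading in B cells, was at 258, 223 and 200.1 CPM in the WT libraries and 302, 301 and 283 CPM in the Sh3gl1-/- libraries (log2 fold change 0.38, SE 0.13, BH-adjusted p = 0.629), and was called ex vivo. The class II chain gene H2-Aa gave 0.10 ± 0.09, with overlap. Among 35 B-cell receptor signalling genes 24 were above 0, median 0.13. Bcl10, which links the receptor to NF-kB, was at 61.5, 77.6 and 65.8 CPM in the WT libraries and 86.2, 97.9 and 97.1 CPM in the Sh3gl1-/- libraries (log2 fold change 0.46, SE 0.13, BH-adjusted p = 0.538). Cr2, complement receptor CD21, went the other way at 325, 357 and 452 CPM in the WT libraries and 258, 264 and 295 CPM in the Sh3gl1-/- libraries (log2 fold change -0.48, SE 0.15, BH-adjusted p = 0.545).

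Ighd, the IgD heavy chain, was called higher ex vivo and stood at 1442, 1819 and 1114 CPM in the WT libraries and 1859.8, 2074 and 1779 CPM in the Sh3gl1-/- libraries after CD40L, with overlap (log2 fold change 0.39, SE 0.17, BH-adjusted p = 0.704). Of the B-cell transcription factors Ebf1 was at 255, 239 and 181 CPM in the WT libraries and 269, 359 and 264 CPM in the Sh3gl1-/- libraries (log2 fold change 0.40, SE 0.17, BH-adjusted p = 0.704). Tnfrsf13b, the BAFF and APRIL receptor TACI, was at 242, 353 and 243 CPM in the WT libraries and 434, 387 and 378 CPM in the Sh3gl1-/- libraries, without overlap (log2 fold change 0.52, SE 0.16, BH-adjusted p = 0.579). Tnfrsf13c, the BAFF receptor, was at 377, 525 and 461 CPM in the WT libraries and 394, 307 and 431 CPM in the Sh3gl1-/- libraries (log2 fold change -0.27, SE 0.17, BH-adjusted p = 0.764). S1pr1, the lymph egress receptor that keeps resting cells recirculating, was at 7.98, 10.7 and 6.1 CPM in the WT libraries and 15.7, 21.6 and 14.7 CPM in the Sh3gl1-/- libraries after CD40L (log2 fold change 1.07, SE 0.26, BH-adjusted p = 0.376), against 469, 393 and 373 CPM in the WT libraries and 442, 442 and 442 CPM in the Sh3gl1-/- libraries ex vivo. Its groups did not overlap after CD40L, and edgeR did not call it, while DESeq2 did (adjusted p = 0.0285). The values after culture were far under those before it in both genotypes, a difference that was not tested.

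Summed markers of T cells, neutrophils and marginal zone B cells separated the genotypes in these sorted populations. The summed level of 16 T-cell genes was 43.8, 43.1 and 42.7 CPM in the WT libraries and 71.2, 67.9 and 61.4 CPM in the Sh3gl1-/- libraries, with 13 of 14 tested genes above 0, 9 (64.3%) higher without overlap against 7.07% of all genes, and none called. Cd4 was at 0.396, 0.631 and 0 CPM in the WT libraries and 1.15, 0.545 and 0.601 CPM in the Sh3gl1-/- libraries, and Cd8a at 0.528, 0.442 and 1.14 CPM in the WT libraries and 0.472, 1.09 and 0.120 CPM in the Sh3gl1-/- libraries, so the defining co-receptors did not separate the groups. Cd3e was at 1.45, 1.64 and 3.02 CPM in the WT libraries and 3.24, 4.36 and 4.03 CPM in the Sh3gl1-/- libraries and Cd3d at 1.72, 2.21 and 3.08 CPM in the WT libraries and 5.26, 3.42 and 4.21 CPM in the Sh3gl1-/- libraries. The 14 neutrophil genes summed to 41.6, 24.7 and 9.92 CPM in the WT libraries and 205, 54.9 and 59.7 CPM in the Sh3gl1-/- libraries, and all 8 tested were above 0 with none called by edgeR. All 8 had an unadjusted edgeR p under 0.05 on the higher side, against 4.35% of all genes. Of them 6 (75%) were higher without overlap, against 7.07% of all genes. S100a8 was highest in Sh3gl1-/- library 1, at 15.2, 4.73 and 2.17 CPM in the WT libraries and 55.9, 14.00 and 15.4 CPM in the Sh3gl1-/- libraries, and Ly6g, a defining marker, was at 0, 0 and 0 CPM in the WT libraries and 0.337, 0 and 0.120 CPM in the Sh3gl1-/- libraries. The 10 marginal zone B-cell genes, Cr2 among them, summed to 872, 899.6 and 953 CPM in the WT libraries and 621, 687 and 696 CPM in the Sh3gl1-/- libraries. This list was split, with 7 genes below 0 and 3 above, values from -0.52 to 1.16 and a median of -0.24. In it 3 genes (30%) were lower without overlap, against 6.43% of all genes, and none was called. Cd1d1 was at 49.9, 58.7 and 64.9 CPM in the WT libraries and 33.9, 34.7 and 56.4 CPM in the Sh3gl1-/- libraries and Cd9 at 41.8, 31.2 and 29.01 CPM in the WT libraries and 24.2, 24.7 and 25.7 CPM in the Sh3gl1-/- libraries. The B-cell list summed to between 17899 and 18998 CPM in WT and between 16353 and 18305 CPM in Sh3gl1-/- libraries. The part of these cells in the differences above was not tested.

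**Figure D5:**
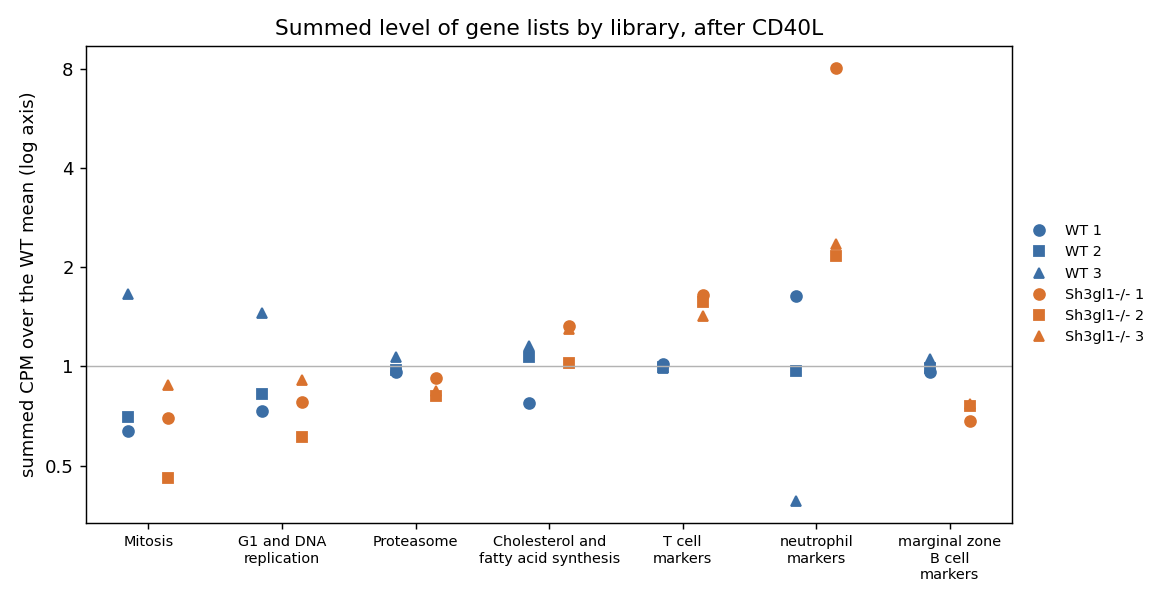
Summed CPM of 7 gene lists in each CD40L library, divided by the WT mean (log axis). WT libraries are blue, Sh3gl1-/- libraries orange, and marker shape gives the library number. WT library 3 stands alone for mitosis and for G1 and DNA replication, and the genotypes do not overlap for the T-cell, neutrophil and marginal zone markers.

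Whether the genotype effect after CD40L differed from that in the other cells was tested directly. The fits took all libraries as independent, with no term for the mouse. If the same mice gave libraries of both states, the p-values of these differences do not allow for it. Against ex vivo follicular cells 0 of 14460 genes were called by edgeR, 1278 (8.84%) had an unadjusted p under 0.05, and DESeq2 called 29. Besides Srebf2 and Msmo1, DESeq2 gave adjusted p = 0.000155 for Bend5, 0.00693 for Psmb10 and 0.0307 for Psme2. Bend5 had the lowest p in edgeR, with a difference of 1.75 ± 0.29 (adjusted p = 0.311). Ex vivo it was at 29.5, 19.1 and 26.3 CPM in the WT libraries and 18.98, 20.5 and 24.2 CPM in the Sh3gl1-/- libraries, so the genotypes overlapped before culture and not after it. Sh3gl1 itself had 2, 3 and 1 counts in the ex vivo Sh3gl1-/- libraries, at or under the floor, so its fold there is a bound and no difference between the states is given. Against transitional cells 0 of 14649 genes were called, 719 (4.91%) had an unadjusted p under 0.05, and DESeq2 called 5.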

How the data were processed

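Poly(A) RNA of 18 libraries was sequenced, 6 of them from CD40L-cultured follicular cells. Per the labels, the submitters' processing notes list cutadapt 1.9.1, STAR 2.5.2a, RSEM 1.3.0 and GRCm38, while the methods name TopHat and Cufflinks. The labels name a stranded KAPA mRNA kit and the methods SMART-Seq HT with Nextera XT, and the use of strand is not stated. The authors deposited expected counts per gene, rounded here, and TPM, used in 1 alternative. The deposited FPKM values of the authors were not used. Rounding can move a count by less than 1.

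Counts were filtered with filterByExpr, scaled by TMM and fitted with edgeR 4.0.16 (limma 3.58.1, R 4.3.3) by quasi-likelihood on the 6 libraries, with Benjamini-Hochberg adjustment over all genes tested. A call is an adjusted p under 0.05. SE is the fold change over the square root of F. Differences between cell states used 12 libraries with 1 coefficient per group and no term for the mouse. DESeq2 1.42.0 and other settings were alternatives. The code was tested on simulated counts. Symbols and positions came from GENCODE M21, which holds 51633 of 51912 identifiers. Named genes were Sh3gl1 and its 2 neighbours, called genes, the 8 per direction with the lowest p among protein-coding genes without overlap, anchor genes and the 2 lowest p of each list, and up to 5 per direction called ex vivo. Sh3gl2, Sh3gl3, Ly6g and marker genes come from the lists. The 40 lists (28 biological, 11 of cell markers, 1 sex-linked) and the comparisons were chosen with earlier results of these data known. Some genes that the rule names are not reported here. Counting floors and intervals cover counting error or library spread only.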

Additional observations from a re-analysis of the deposited data

How the results depend on the processing

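Genes called higher and lower after CD40L numbered 0 and 3 in edgeR. They were 46 and 29 with DESeq2, 2 and 5 with limma-voom and quality weights, 133 and 83 with no filter on low counts, 48 and 34 when all 18 libraries were fitted, and 1 and 1 with limma-trend on log2(TPM + 1). RLE scaling, a stricter filter, leaving out immunoglobulin segments and a sex term, added after seeing the data, gave 0 and 3, with Mocs1 not among them under the sex term. Leaving out a library gave 0 to 3 higher and 1 to 7 lower. The cause of these differences was not tested. Sh3gl1 was called under all 16 alternatives, Mpnd under 13 and Mocs1 under 8.

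Same-numbered libraries of the 2 genotypes did not deviate together (r = -0.10, -0.13 and 0.15 over genes), so the numbers were not taken as pairs. A replicate block gave 12 genes higher and 9 lower after CD40L, 212 ex vivo and 90 in transitional cells, and the difference from transitional cells gave 1.

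The difference from ex vivo cells gave 29 genes with DESeq2, 210 without a filter and 0 to 1 with a library left out. That from transitional cells gave 5, 111 and 0 to 1. Ex vivo calls were 115, with DESeq2 345, and 32 to 112 with a library left out. Transitional calls were 514, with DESeq2 1271, and 28 to 479.

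Of the list medians under the alternatives, 591 moved by less than the spread between libraries and 33 by more, among them those of CD40 proximal signalling (-0.16 to 0.0073 with a library left out) and of NF-kB genes (0.11 to 0.19). Of the 184 named genes tested, 51 changed sign under at least 1 setting, and none of these was called. Depth limits genes under about 1 CPM.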

Other observations

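Other gene lists were measured in the same 6 libraries. Of 15 tested BCL2 family genes, 8 were above 0 and 7 below, with a median of 0.02, and none was called. Bcl2l2, a pro-survival member, was at 3.76, 3.41 and 3.59 CPM in the WT libraries and 5.46, 7.55 and 6.13 CPM in the Sh3gl1-/- libraries (log2 fold change 0.83, SE 0.25, BH-adjusted p = 0.545). Bcl2a1a, a pro-survival member that NF-kB induces, was at 2.31, 2.02 and 1.54 CPM in the WT libraries and 0.539, 1.01 and 0.601 CPM in the Sh3gl1-/- libraries (log2 fold change -1.45, SE 0.45, BH-adjusted p = 0.56), and it shares reads with near-identical copies. The pro-survival gene Bcl2l1 ranged more widely within groups, at 60.7, 79.7 and 151 CPM in the WT libraries and 93.6, 48.5 and 125 CPM in the Sh3gl1-/- libraries (-0.13 ± 0.37).

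Interferon-induced genes gave a median of -0.04 over 28 tested genes, 13 above 0 and 15 below. Gbp3, an interferon-induced GTPase, was at 49.1, 54.7 and 67.02 CPM in the WT libraries and 34.6, 21.2 and 36.4 CPM in the Sh3gl1-/- libraries, without overlap (log2 fold change -0.89, SE 0.21, BH-adjusted p = 0.376), and DESeq2 called it (adjusted p = 0.0205). Of 26 genes of chaperones and the unfolded protein response 14 were below 0, with a median of -0.11. Hsp90b1, the chaperone GRP94, was at 846, 1086 and 993 CPM in the WT libraries and 839, 753 and 748 CPM in the Sh3gl1-/- libraries, without overlap (log2 fold change -0.32, SE 0.12, BH-adjusted p = 0.664). Of 19 glycolysis genes 15 were below 0 (median -0.16), and Aldoc, an aldolase, was at 14.2, 20.5 and 21.3 CPM in the WT libraries and 34.7, 26.9 and 37.03 CPM in the Sh3gl1-/- libraries on the higher side (log2 fold change 0.82, SE 0.21, BH-adjusted p = 0.391).

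Erythroid genes summed to 6.27, 341 and 33.3 CPM in the WT libraries and 57.1, 112 and 30.4 CPM in the Sh3gl1-/- libraries, with WT library 2 far above the others. The plasma cell list summed to 417, 413 and 362 CPM in the WT libraries and 279.8, 328 and 293 CPM in the Sh3gl1-/- libraries. Its 8 tested genes were evenly split, 4 above 0 and 4 below, from -1.02 to 0.91, and none was called. Vpreb3, a gene of the transitional B-cell marker list, was at 11.3, 12.2 and 8.15 CPM in the WT libraries and 3.24, 7.55 and 2.83 CPM in the Sh3gl1-/- libraries (log2 fold change -1.23, SE 0.38, BH-adjusted p = 0.545).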
